A study of Mus musculus with 105 samples.

Results

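The mRNAs of 35 cell cycle genes were measured in 3 mouse cell lines. They are 13 genes of DNA replication and entry into S phase, 19 genes of mitosis and of the phase that leads to it, and 3 transcription factors that act on such genes (E2f1, Foxm1 and Mybl2). The genes were chosen as a list of symbols, with earlier results of these data known. Each symbol matched 1 Ensembl identifier among the 54532 of the mRNA table. The first line, ESC, is the v6.5 embryonic stem cell line (labelled strain C57BL/6), grown with LIF and the inhibitors PD0325901 and CHIR99021. CIMEF are C57BL/6J embryonic fibroblasts that had been kept contact-inhibited for 5 days, and DMEF are C57BL/6J embryonic fibroblasts that were passaged and kept dividing in serum. The labels place the cultures between passages 5 and 15. Each line had 2 libraries of poly(A)-selected mRNA, sequenced as 40 nt reads, among the 105 samples of the series, which otherwise hold small RNA. Labels of the mRNA samples name no labelling agent and no time. Whether the 2 libraries of a line come from separate cultures is not stated, so p-values measure only the spread between these libraries, which may be technical.

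A dividing cell loads the MCM helicase onto replication origins, fires those origins when cyclin E and its kinase become active, copies its DNA, and then builds a spindle under the control of cyclin B, Cdk1, Polo and Aurora kinases. Genes of the replication phase are classic targets of E2F factors, which the retinoblastoma family of pocket proteins holds in check in resting cells. Genes of mitosis are switched on later by B-Myb (Mybl2) and FoxM1 together with the MuvB complex, through a promoter element called the CHR (cell cycle genes homology region), often close to CCAAT boxes bound by NF-Y. Fibroblasts that touch their neighbours leave this cycle and rest, while embryonic stem cells cycle fast with a short first gap phase and spend much of their time in S phase.

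Both kinds of promoter are shown here because the comparison of S-phase with mitotic genes runs along them. The first 5 belong to mitotic genes. Cdc20 and Ube2c were among the mitotic mRNAs that were lower in CIMEF than in DMEF, Kif11 and Mki67 among those that were higher, and Cdk1 carries all 3 motifs. These genes were chosen for display after their values were seen. Each line gives bases upstream of the RefSeq start of transcription, 5′ to 3′ on the strand of the gene, in build GRCm38.p6. Each starts 160 bases before the start, and bases inside an annotated gene were left out. Capitals mark matches to the CHR, the CCAAT box and the E2F motif on either strand. The CHR was searched as TTTGAA, and its variant TTTAAA, which reads the same on both strands, counted as well. On the opposite strand a CCAAT box appears as ATTGG, and a CHR as TTCAAA.
Cdc20 (chr4:118437344-118437503, minus strand): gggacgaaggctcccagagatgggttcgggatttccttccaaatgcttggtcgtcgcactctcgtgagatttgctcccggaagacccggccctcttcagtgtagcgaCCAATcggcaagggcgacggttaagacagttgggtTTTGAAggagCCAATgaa
Ube2c (chr2:164769769-164769928, plus strand): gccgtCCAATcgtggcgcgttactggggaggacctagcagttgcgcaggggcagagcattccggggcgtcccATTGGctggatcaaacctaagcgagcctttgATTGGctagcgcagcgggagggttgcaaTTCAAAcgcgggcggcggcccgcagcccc
Cdk1 (chr10:69352913-69353072, minus strand): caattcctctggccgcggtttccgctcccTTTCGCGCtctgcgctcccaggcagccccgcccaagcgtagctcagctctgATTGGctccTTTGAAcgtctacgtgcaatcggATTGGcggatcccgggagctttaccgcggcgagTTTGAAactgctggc
Kif11 (chr19:37376222-37376381, plus strand): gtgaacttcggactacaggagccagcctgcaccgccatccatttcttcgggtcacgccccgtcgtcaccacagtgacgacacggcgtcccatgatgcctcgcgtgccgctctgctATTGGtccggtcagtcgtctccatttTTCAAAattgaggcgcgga
Mki67 (chr7:135716451-135716539, minus strand): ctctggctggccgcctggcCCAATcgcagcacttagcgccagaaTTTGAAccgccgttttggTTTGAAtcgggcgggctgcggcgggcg
The next 2 belong to S-phase genes that encode helicase subunits, and the capitals mark the same motifs. Neighbouring E2F matches on opposite strands overlap in both, and appear as 1 longer run of capitals.
Mcm6 (chr1:128359706-128359865, minus strand): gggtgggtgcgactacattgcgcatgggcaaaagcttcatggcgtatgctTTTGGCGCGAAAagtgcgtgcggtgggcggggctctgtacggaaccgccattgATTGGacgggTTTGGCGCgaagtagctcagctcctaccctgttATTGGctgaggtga
Mcm5 (chr8:75109349-75109467, plus strand): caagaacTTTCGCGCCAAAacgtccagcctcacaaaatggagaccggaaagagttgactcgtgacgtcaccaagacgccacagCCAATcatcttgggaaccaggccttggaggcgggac

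RefSeq windows from 250 bases before to 50 after the start were found for 15 of the 19 mitotic genes, 11 of the 13 S-phase genes (12 windows) and 2 of the 3 transcription factors. Mcm4, Ccne2, Ccna2, Aurkb, Kif20a, Tpx2 and Foxm1 had no entry. Among the mitotic windows 14 of 15 (93.3%) held a CHR, against 27.6% of all 32851 windows of that length, and 14 held a CCAAT box, against 37.4%. Both motifs together stood in 13 of the 15 (86.7%), against 10.7% of all windows. Bub1, a kinase of the spindle checkpoint, was the mitotic gene without a CHR match, and Birc5 (survivin) the one without a CCAAT box. An E2F motif, searched as TTTCCCGC, TTTGGCGC, TTTGCCGC and TTTCGCGC on both strands, occurred in 6 of 12 S-phase windows, in 1 mitotic window, that of Cdk1, and in 2.26% of all windows. S-phase windows held a CHR in 4 of 12 cases (33.3%) and a CCAAT box in 8 (66.7%). Neither window of E2f1 and Mybl2 held any of the 3 motifs. Both of these windows lie wholly inside the annotated gene, as do those of Aurka and Cdc6 and 1 window of Mcm7. For E2f1, Mybl2, Aurka and Cdc6, bases upstream of the gene's annotated 5′ end were therefore not searched. The windows of Aurka, Cdc6 and Mcm7 are counted in the shares above. A match describes letters in a window and is not a measured binding site.

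**Figure D1:**
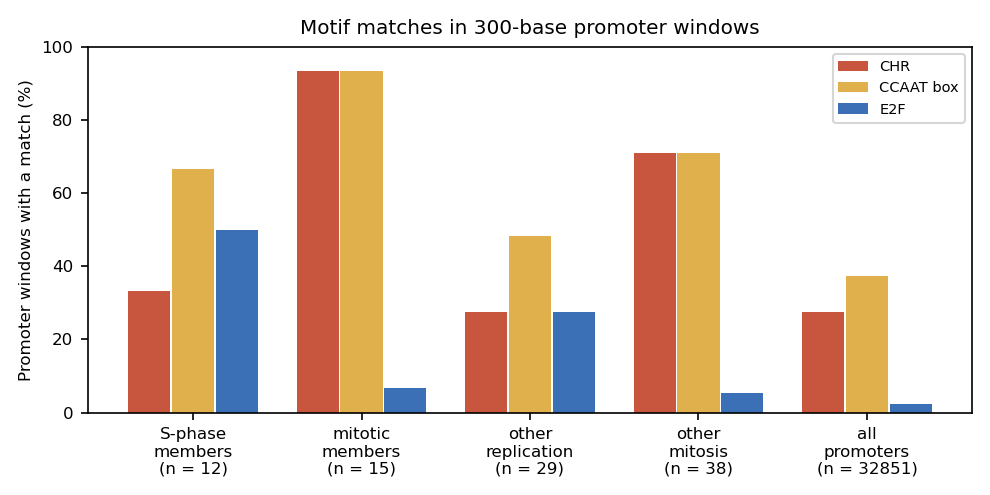
Share of 300-base promoter windows (percent, vertical axis) that hold a CHR, a CCAAT box or an E2F motif on either strand, in S-phase members, mitotic members, other replication genes, other mitosis genes and all RefSeq windows, with the number of windows under each group. The CHR bar stands at 93.3% in mitotic members and 27.6% in all windows, and the E2F bar stands for 6 of 12 windows in S-phase members and for 2.26% of all windows.

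The motifs were also counted in 2 larger lists of cell cycle genes outside the 35 members. These lists too were chosen with earlier results of these data known. Among 38 windows of other mitosis genes, a CHR stood in 71.1% and an E2F motif in 5.26%, and among 29 windows of other replication genes a CHR stood in 27.6% and an E2F motif in 27.6%. In Cdc20, Ube2c, Cdk1 and Kif11 the printed CHR closest to the start lay within 30 bases of it, and at least 1 CCAAT box lay further upstream in each of them. Kif11 and Mki67, which were higher in CIMEF, carried the same pair of motifs as Cdc20 and Ube2c, which were lower, and so did Cenpf.

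**Figure D2:**
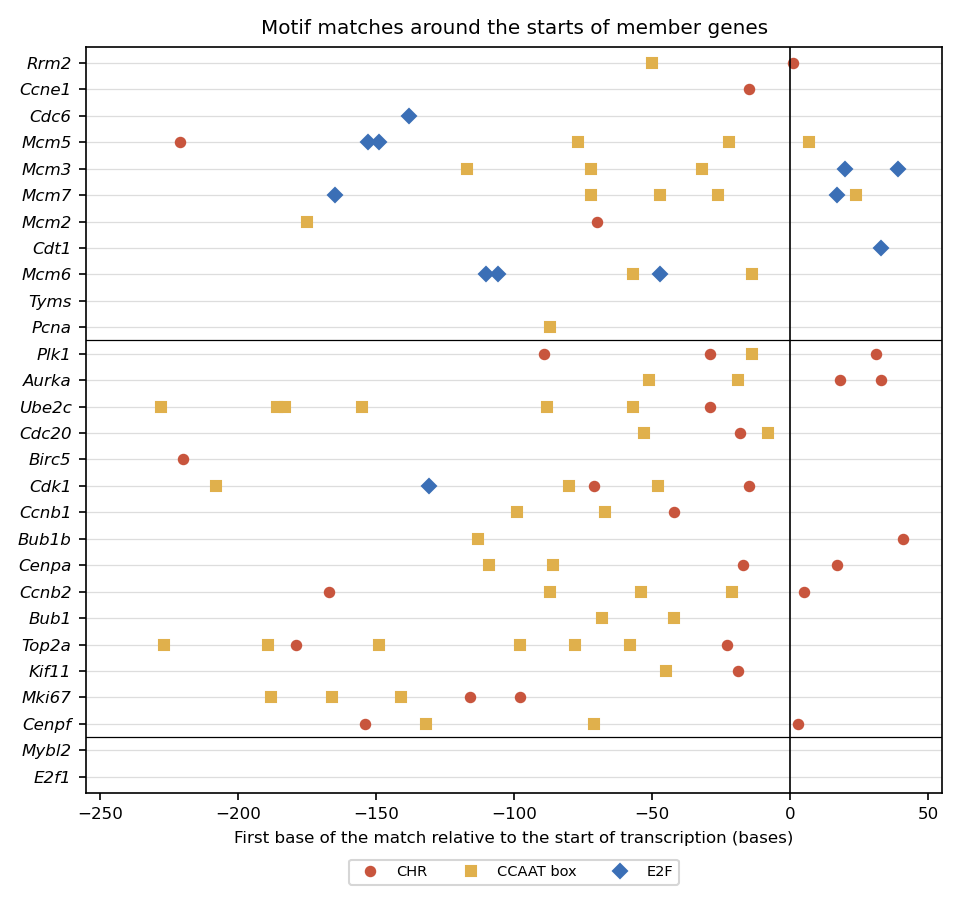
First base of each motif match (symbols) relative to the RefSeq start of transcription (bases, horizontal axis, 0 at the start) in the member genes that have a promoter window, with S-phase genes above, mitotic genes in the middle and transcription factors below. CHR matches appear in every mitotic row except that of Bub1, and E2F matches lie in Mcm3, Mcm5, Mcm6, Mcm7, Cdc6, Cdt1 and Cdk1.

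Libraries held 25828188 and 23285365 counts in ESC, 26753699 and 23030907 in CIMEF, and 29083076 and 34093791 in DMEF. All 35 members passed the expression filter, among 18094 genes, and the lowest count of any member in any library was 266, so counting error is small for each of them. The members together took 1.14% and 1.19% of all counts in ESC, 0.589% and 0.543% in CIMEF, and 0.606% and 0.691% in DMEF. Levels below are in CPM, which is the count divided by the library total after TMM scaling by edgeR, times 1e+06. They were not divided by transcript length, so levels are compared between lines and not between genes. Across the members, the log2 difference between replicate libraries had an SD of 0.09 in ESC, 0.22 in CIMEF and 0.27 in DMEF. This SD leaves out any shift that the members share. The largest difference of any member was 0.30 in ESC, 0.63 in CIMEF and 0.63 in DMEF. Marker genes separated ESC from the fibroblasts as labelled, since all 8 stem cell markers were higher in ESC than in either fibroblast line, and of 8 fibroblast markers 8 were lower in ESC than in DMEF and 7 than in CIMEF. Between CIMEF and DMEF, 5 of the 8 fibroblast markers were higher in CIMEF, 1 was lower and 2 did not pass, against 19.5% higher and 21.1% lower of all genes. Their CIMEF levels ran from 16.5% (Thy1) to 570% (Pdgfra) of those in DMEF. These markers do not check the labels CIMEF and DMEF. Gm42418, which overlaps a ribosomal RNA locus, took 7.95% and 4.53% of counts in ESC, 2.17% and 1.22% in CIMEF and 2.84% and 2.82% in DMEF. Its part in the results was not tested.

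**Figure D3:**
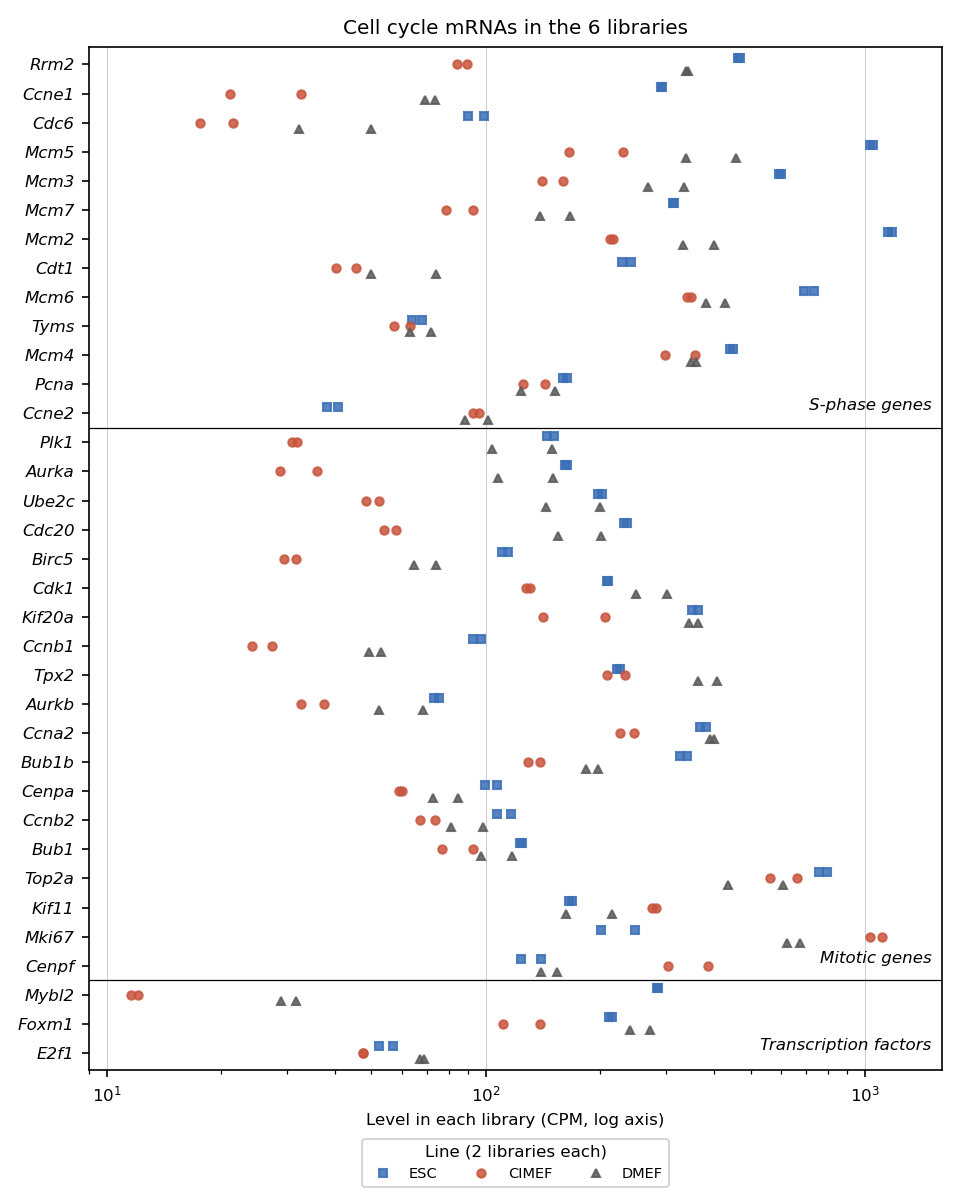
Level of each of the 35 members (CPM, log axis) in the 6 libraries, with squares for ESC, circles for CIMEF and triangles for DMEF, and genes sorted within each group by the difference between CIMEF and DMEF. CIMEF circles stand left of DMEF triangles for most genes, and right of them for Kif11, Mki67 and Cenpf, while ESC squares stand right of the fibroblast symbols for most S-phase genes, but left of them for Ccne2.

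Contact-inhibited fibroblasts were compared with dividing ones to ask which cell cycle mRNAs differ after 5 days of contact inhibition. Whether the cells had stopped dividing was not measured here. Of the 35 members, 22 were lower in CIMEF than in DMEF, 3 were higher and 10 did not pass (edgeR's quasi-likelihood test, Benjamini-Hochberg adjusted over 18094 genes, threshold 0.05). Across all genes tested, 21.1% were lower and 19.5% higher, 40.6% in all. The median member differed by -0.79 on the log2 scale for mitotic genes, -0.77 for S-phase genes and -1.03 for the transcription factors, against 0 for all genes. In bulk samples, fewer cells in a phase and less of the RNA per cell cannot be told apart.

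Among S-phase genes 7 of 13 fell. None rose in edgeR or in DESeq2, and in edgeR's fit no S-phase gene had a positive estimate. Rrm2, the small subunit of ribonucleotide reductase, which makes the building blocks of DNA, stood at 89.1 and 84.2 CPM in CIMEF, against 339 and 342 CPM in DMEF. Both CIMEF libraries lay far below both DMEF libraries, a 3.93-fold lower level (log2 -1.97, SE 0.13, edgeR adjusted p = 0.000407). Ccne1, a cyclin that drives entry into S phase, had 32.7 and 21.1 CPM in CIMEF, against 69.2 and 73.7 CPM in DMEF, and was 2.65-fold lower (log2 -1.41, SE 0.21, edgeR adjusted p = 0.00331). Its relative Ccne2 had 92.9 and 95.8 CPM in CIMEF, against 88.3 and 102 CPM in DMEF. The Ccne2 values of the lines overlapped and the gene did not pass (log2 -0.01, SE 0.14).

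The 6 helicase genes all had negative estimates, of which 4 passed. Mcm2, Mcm3, Mcm5 and Mcm7 fell, from 1.70-fold for Mcm2 (edgeR adjusted p = 0.00734) to 2.01-fold for Mcm5 (edgeR adjusted p = 0.011). Mcm6 had 339.5 and 348 CPM in CIMEF, against 383 and 428 CPM in DMEF, a log2 of -0.24 (SE 0.13) that did not pass although the libraries did not overlap. Mcm4, a subunit of the same ring, had 357 and 298 CPM in CIMEF, against 360.0 and 349 CPM in DMEF, and did not pass (log2 -0.11, SE 0.14). Cdc6, which loads the helicase, fell to 21.6 and 17.6 CPM in CIMEF, against 32.2 and 49.8 CPM in DMEF (log2 -1.06, SE 0.23, edgeR adjusted p = 0.0122). Cdt1, its partner in loading, was estimated lower but did not pass (log2 -0.53, SE 0.20, edgeR adjusted p = 0.0725). Tyms (thymidylate synthase) and Pcna (the sliding clamp of the polymerases) overlapped between the lines, with log2 values of -0.16 and -0.03.

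Of the 19 mitotic genes, 12 fell in CIMEF. Plk1, the Polo kinase of mitotic entry, had 31.9 and 30.8 CPM in CIMEF, against 104 and 149.7 CPM in DMEF. Aurka, the Aurora kinase of the spindle poles, had 36.0 and 28.6 CPM in CIMEF, against 108 and 151 CPM in DMEF. For both kinases every CIMEF library lay below every DMEF library, and the levels were 4.05-fold and 4.00-fold lower (edgeR adjusted p = 0.000933 for Plk1 and 0.00111 for Aurka). Ube2c, the enzyme that supplies ubiquitin to the anaphase-promoting complex, had 52.4 and 48.2 CPM in CIMEF, against 144 and 199.9 CPM in DMEF, and was 3.42-fold lower (log2 -1.77, SE 0.18, edgeR adjusted p = 0.00111). Cdc20, an activator of that complex, had 58.1 and 53.9 CPM in CIMEF, against 155 and 201 CPM in DMEF, and was 3.18-fold lower (log2 -1.67, SE 0.16, edgeR adjusted p = 0.000946). The libraries of the lines did not overlap for either gene.

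Cdk1, the kinase that starts mitosis, had 128 and 131 CPM in CIMEF, against 249 and 302 CPM in DMEF (log2 -1.09, SE 0.14, edgeR adjusted p = 0.00221). Its cyclin Ccnb1 had 27.4 and 24.2 CPM in CIMEF, against 49.1 and 53.1 CPM in DMEF (log2 -0.99, SE 0.14, edgeR adjusted p = 0.00306), and Ccnb2, the second B-type cyclin, did not pass (log2 -0.35). Birc5 fell by 1.19 on the log2 scale, the cytokinesis kinesin Kif20a by 1.02, the spindle assembly factor Tpx2 by 0.80, Aurkb of the chromosomal passenger complex by 0.79, cyclin A2 (Ccna2) by 0.74 and the checkpoint gene Bub1b by 0.51. The checkpoint kinase Bub1 and the centromeric histone Cenpa were estimated lower by log2 values of -0.34 and -0.40, and neither passed (edgeR adjusted p = 0.125 and 0.0561).

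Against this direction, 3 mitotic mRNAs were higher in contact-inhibited cells. Cenpf, a large protein of the kinetochore and nuclear matrix, had 387 and 302 CPM in CIMEF, against 140.3 and 155 CPM in DMEF, and rose 2.34-fold (log2 1.22, SE 0.17, edgeR adjusted p = 0.0025). Mki67, the Ki-67 antigen that coats mitotic chromosomes and serves as a standard proliferation marker, had 1108 and 1031 CPM in CIMEF, against 625 and 674 CPM in DMEF, and rose 1.65-fold (log2 0.72, SE 0.15, edgeR adjusted p = 0.011). Kif11, the kinesin that pushes spindle poles apart, had 274 and 282 CPM in CIMEF, against 215 and 163 CPM in DMEF, and rose 1.47-fold (log2 0.56, SE 0.16, edgeR adjusted p = 0.0317). For all 3 genes both CIMEF libraries exceeded both DMEF libraries. The Kif11 call was lost in a fit of these 2 lines alone (adjusted p = 0.0769) and without DMEF replicate 2 (adjusted p = 0.0802), without ESC replicate 1 (0.0774) and without ESC replicate 2 (0.0842). Top2a, the topoisomerase that untangles chromosomes, overlapped between the lines, with 663 and 564 CPM in CIMEF, against 609.9 and 436 CPM in DMEF.

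Gene span was set beside these differences. Cenpf spans 47502 bases of chromosome 1, Kif11 45482 bases of chromosome 19 and Mki67 26667 bases of chromosome 7, while Ube2c spans 2974 and Cdc20 4443 bases. Among other members that fell, Tpx2 spans 47358, Bub1b 43391 and Mybl2 30362 bases. Across the 35 members the difference between CIMEF and DMEF followed gene span with a Spearman rho of 0.43, and across 13575 protein-coding genes with a rho of 0.15, values in which all genes share the same 6 libraries. The difference between the DMEF replicates also followed span (rho -0.26 in members and -0.21 over protein-coding genes, replicate 2 minus 1). Span is the length of the gene from start to end, introns included, and transcript lengths were not available. In an alternative chosen after seeing the data, each library's trend with span was removed. Cenpf then had a log2 of 1.09 (edgeR adjusted p = 0.00355), Mki67 0.68 (0.0122) and Kif11 0.45 (0.0444). The members called were 3 higher and 22 lower. Whether gene span or transcript length had a part in these differences was not tested.

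All 3 transcription factors fell. Mybl2 (B-Myb) had 12.1 and 11.6 CPM in CIMEF, against 28.8 and 31.6 CPM in DMEF, and was 2.55-fold lower (log2 -1.35, SE 0.13, edgeR adjusted p = 0.000954). Foxm1, the forkhead factor of mitotic genes, had 139 and 111 CPM in CIMEF, against 239.9 and 272 CPM in DMEF (log2 -1.03, SE 0.16, edgeR adjusted p = 0.00347). E2f1, the classic activator of S-phase genes, had 47.6 and 47.5 CPM in CIMEF, against 67.3 and 69.0 CPM in DMEF (log2 -0.52, SE 0.13, edgeR adjusted p = 0.0211). None of the 3 overlapped between the lines, and the E2f1 call was lost in 5 of 15 alternatives, as was that of Bub1b.

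In all, both CIMEF libraries lay below both DMEF libraries for 27 of 35 members, against 36.2% of all genes, and above them for 3 members, against 33.1%. Without DMEF replicate 2 the members called were 2 higher and 17 lower, and the calls of Mcm5, Cdc6, Aurkb, Kif20a, Kif11 and E2f1 were lost. Over all genes, 1605 were then higher and 2000 lower, against 3528 and 3812 with it. Endothelial marker genes summed to 4.80 and 6.92 CPM in CIMEF, against 20.1 and 16.3 CPM in DMEF, with 1 of 3 tested called lower and Cldn5 at 0 in all 4 libraries. Macrophage markers summed to 2.64 and 1.92 CPM in CIMEF, against 2.52 and 3.00 CPM in DMEF, with 1 of 2 tested called higher and Adgre1 and C1qa at 0. Skeletal muscle markers summed to 1.08 and 1.35 CPM in CIMEF, against 4.76 and 5.15 CPM in DMEF, with 1 of 2 tested called lower and Myog, Myf5 and Pax7 at 0. The part of such cells in the results was not tested.

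In 3 further lists of cell cycle genes, chosen with earlier results of these data known, more genes were lower than higher. Over all genes 21.1% were lower and 19.5% higher. Of 30 further replication genes 11 fell and 2 rose in CIMEF (median log2 -0.48). Mcm10, a replisome factor, fell by 1.21 on the log2 scale and Gmnn, the Cdt1 inhibitor geminin, by 1.39, while Pola1, the catalytic subunit of the priming polymerase, and Hells, a chromatin remodeller, rose with log2 values of 0.73 and 0.61. Of 39 further mitosis genes tested, 18 fell and 3 rose (median -0.39). Cdca8 of the passenger complex fell by 1.38 and the spindle protein Tacc3 by 1.23, and the condensin subunit Smc4 and the spindle pole protein Aspm rose with log2 values of 0.93 and 0.76. Of 23 G1 cyclins, kinases, E2F and pocket protein genes, 11 fell and 3 rose (median -0.51). Cyclin D1 (Ccnd1) fell by 1.94 and the repressor E2f7 by 1.36, while Rbl2, the pocket protein p130 of resting cells, and the E2F partner Tfdp2 rose with log2 values of 1.32 and 0.92. Each gene named passed edgeR's test, with adjusted p between 0.00095 and 0.026.

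**Figure D4:**
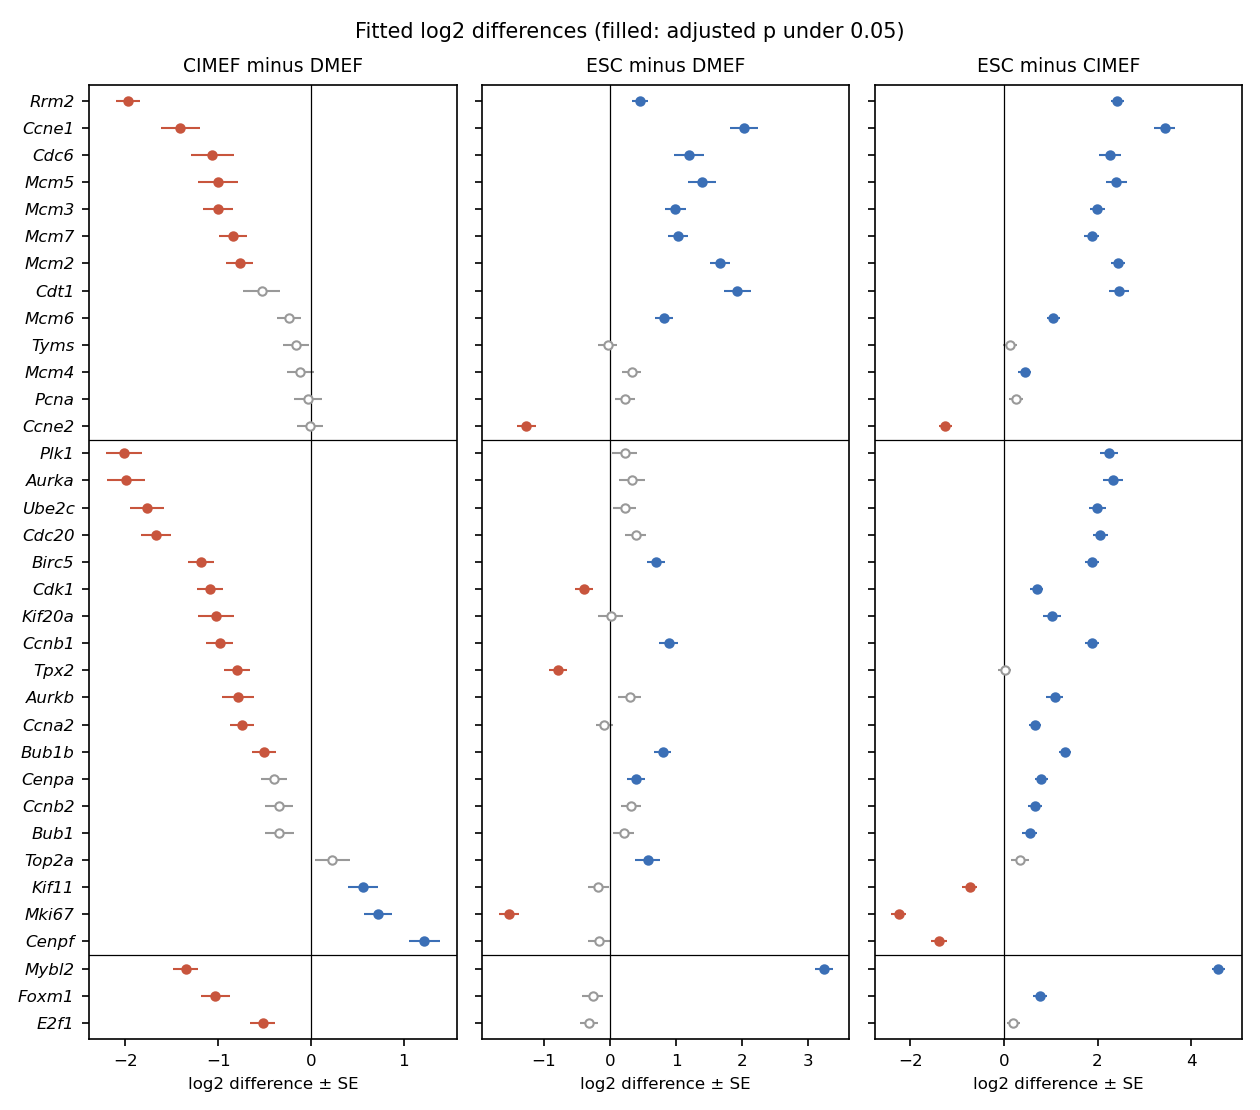
Fitted log2 difference ± SE of each member in CIMEF less DMEF (left), ESC less DMEF (middle) and ESC less CIMEF (right), with S-phase genes above, mitotic genes in the middle and transcription factors below. Each SE is the absolute log2 difference divided by the square root of the F value of edgeR's test. Filled points passed edgeR's test (blue higher, red lower) and open grey points did not. Plk1 stands at -2.02 on the left, at 0.22 in the middle and at 2.24 on the right.

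Stem cells were then set against dividing fibroblasts. The counts differed by phase. Of 13 S-phase genes 9 were higher in ESC, 1 was lower and 3 did not pass, whereas of 19 mitotic genes 5 were higher, 3 were lower and 11 did not pass. Over all 35 members 15 were higher and 4 lower, against 30.3% and 30.5% of all genes (60.8% in all). The median log2 difference was 0.99 for S-phase genes, 0.22 for mitotic genes and 0.06 for all genes.

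Mcm2 reached 1181 and 1149.7 CPM in ESC, against 331 and 401 CPM in DMEF, a 3.18-fold higher level (log2 1.67, SE 0.15, edgeR adjusted p = 8.72e-05). Mcm5 had 1055 and 1032 CPM in ESC, against 337 and 457 CPM in DMEF, and was 2.63-fold higher (log2 1.39, SE 0.22, edgeR adjusted p = 0.00124). Mcm3, Mcm7 and Mcm6 were higher with log2 values of 0.99, 1.03 and 0.82, and Mcm4 was estimated higher by 0.33 and did not pass (edgeR adjusted p = 0.0792). The loading factor Cdt1 had 229 and 243 CPM in ESC, against 49.8 and 74.0 CPM in DMEF, and was 3.80-fold higher (log2 1.93, SE 0.21, edgeR adjusted p = 0.00021). Cdc6 was 2.30-fold higher (log2 1.20, SE 0.23), and both libraries of ESC exceeded both of DMEF for each gene of this paragraph.

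The 2 E-type cyclins went opposite ways. Ccne1 had 292 and 291 CPM in ESC, against 69.2 and 73.7 CPM in DMEF, and was 4.08-fold higher (log2 2.03, SE 0.21, edgeR adjusted p = 0.000186). Ccne2 had 38.2 and 40.8 CPM in ESC, against 88.3 and 102 CPM in DMEF, and was lower (log2 -1.26, SE 0.14, edgeR adjusted p = 0.00024). For neither cyclin did the libraries of the lines overlap. Rrm2 was higher by a smaller amount, with 462 and 469.7 CPM in ESC, against 339 and 342 CPM in DMEF (log2 0.45, SE 0.12, edgeR adjusted p = 0.0154). The Rrm2 call was lost without either ESC replicate, and with no filter beyond 1 count (edgeR adjusted p = 0.0673). Tyms overlapped between the lines.

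Most mitotic mRNAs did not pass the test between ESC and DMEF. Plk1 had 151 and 145 CPM in ESC, against 104 and 149.7 CPM in DMEF (log2 0.22, SE 0.19), Ube2c had 198 and 203 CPM in ESC, against 144 and 199.9 CPM in DMEF (log2 0.22, SE 0.18), and Kif20a had 362 and 351 CPM in ESC, against 344 and 364 CPM in DMEF (log2 0.01, SE 0.19). None of the 3 passed and their libraries overlapped, which does not show that the levels are equal. The mitotic genes that were higher were Ccnb1 (log2 0.89), Bub1b (0.80), Birc5 (0.70), Top2a (0.57) and Cenpa (0.39). Those that were lower were Mki67, Tpx2 (log2 -0.78) and Cdk1 (log2 -0.39, edgeR adjusted p = 0.046). Mki67 had 202 and 248 CPM in ESC, against 625 and 674 CPM in DMEF, a 2.89-fold lower level (log2 -1.53, SE 0.16, edgeR adjusted p = 0.000169).

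The mitotic calls between ESC and DMEF moved with scaling and with single libraries, as did the calls over all genes. With upper-quartile scaling 11 mitotic genes were higher and 2 lower, and with library totals alone 12 and 2, while the median of all genes moved to 0.34 and 0.41. Over all genes 6854 were higher and 4670 lower with upper-quartile scaling, and 7145 and 4472 with library totals alone, against 5488 and 5513. The median log2 of the mitotic genes was 0.26 without ESC replicate 2, 0.28 without ESC replicate 1 and 0.33 without DMEF replicate 2, against 0.22. Top2a lost its call without either ESC replicate or without DMEF replicate 2, and Birc5 lost its call without ESC replicate 2. Cenpa lost its call in 6 of 15 alternatives and Cdk1 in 8 of 15.

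Of the transcription factors, Mybl2 had the largest difference of any member. It reached 286 and 283 CPM in ESC, against 28.8 and 31.6 CPM in DMEF, and was 9.41-fold higher (log2 3.23, SE 0.14, edgeR adjusted p = 4.48e-06). Foxm1 and E2f1 were estimated slightly lower in ESC, by log2 values of -0.26 and -0.32, and did not pass. Mybl2 lies on chromosome 2 from 163054327 to 163084688 in GRCm38.p6. Its level in DMEF was 10.6% of that in ESC, beside a median of 0.869% (range 0.775% to 12.7%) for the 8 stem cell markers.

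Both libraries of ESC lay above both of DMEF for 22 of 35 members, against 44.7% of all genes, and below them for 8, against 40.9%. Among the other genes of the pathway, 15 of 30 replication genes were higher and 1 lower (median log2 0.57). The lowest p among them belonged to Uhrf1, which maintains DNA methylation behind the fork (1.92), and the clamp loader subunit Rfc5 (2.22), and Rrm1, the large subunit of ribonucleotide reductase, was lower (-0.53). Of 39 mitosis genes 10 were higher and 14 lower (median -0.16). Separase (Espl1, log2 1.47) and the condensin subunit Ncapd2 (1.17) were higher, and the cytokinesis proteins anillin (Anln, -1.31) and Prc1 (-1.35) were lower. Of 23 G1 genes 8 were higher and 8 lower (median 0.17). For both lists these shares, 25.6% and 35.9% of the mitosis genes and 34.8% each way of the G1 genes, lie near the 30.3% higher and 30.5% lower of all genes. By lowest p, E2f4 (1.41) and E2f2 (2.87) came first among the G1 genes that were higher, and E2f7 (-2.31) and E2f6 (-2.03) among those that were lower. Each passed edgeR's test, with adjusted p of 0.027 or less.

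Stem cells were last set against contact-inhibited fibroblasts. Of the 35 members 26 were higher in ESC and 4 were lower, against 38.2% and 37.7% of all genes (75.9% in all). They were 10 higher and 1 lower among 13 S-phase genes, 14 higher and 3 lower among 19 mitotic genes, and 2 higher among the 3 transcription factors. The median log2 difference was 1.99 for S-phase genes, 0.79 for mitotic genes and 0.06 for all genes. This comparison shares its libraries with the other 2, so its values add no independent libraries.

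Mybl2 again stood at the top, with 286 and 283 CPM in ESC, against 12.1 and 11.6 CPM in CIMEF, 24.0-fold higher (log2 4.58, SE 0.15, edgeR adjusted p = 3.08e-06). Its level in CIMEF was 4.16% of that in ESC, beside a median of 0.723% (range 0.587% to 13.9%) for the stem cell markers. Whether stem cell RNA had a part in it was not tested. Ccne1 was 10.8-fold higher, with 292 and 291 CPM in ESC, against 32.7 and 21.1 CPM in CIMEF (log2 3.44, SE 0.22, edgeR adjusted p = 1.78e-05). Rrm2 and Cdt1 were 5.38-fold and 5.50-fold higher, and Mcm2 5.42-fold. Among mitotic genes Aurka was 5.04-fold and Plk1 4.73-fold higher.

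The genes that were lower in ESC than in CIMEF were Ccne2 (log2 -1.26, SE 0.14) and the same 3 mitotic genes that were higher in CIMEF than in DMEF. Mki67 had 202 and 248 CPM in ESC, against 1108 and 1031 CPM in CIMEF, and was 4.76-fold lower (log2 -2.25, SE 0.16, edgeR adjusted p = 2.53e-05). Cenpf had 124 and 139.9 CPM in ESC, against 387 and 302 CPM in CIMEF (log2 -1.39, SE 0.17), and Kif11 had 169 and 166 CPM in ESC, against 274 and 282 CPM in CIMEF (log2 -0.73, SE 0.16). With the span trend removed Kif11 stood at -0.37 and lost its call (edgeR adjusted p = 0.0505), which left 3 members lower. Libraries of the lines did not overlap for any of the 4 genes. Both ESC libraries lay above both CIMEF libraries for 30 members, against 46.6% of all genes, and below for 4, against 43.7%.

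Other genes of the pathway gave 24 higher and 1 lower of 30 replication genes (median log2 0.91), 19 higher and 12 lower of 39 mitosis genes (0.23), and 12 higher and 8 lower of 23 G1 genes (0.89). Uhrf1 (2.74) and Mcm10 (3.18) had the lowest p of the replication genes that were higher, and Pola1 (-0.48) was lower. Separase (2.19) and the centrosomal kinase Nek2 (2.13) were higher, and Smc4 (-1.89) and the kinetochore motor Cenpe (-1.43) were lower. E2f4 (2.58) and the phosphatase Cdc25a (2.12), which activates cyclin-dependent kinases, were higher, and the pocket proteins Rbl2 (-4.10) and Rb1 (-3.21) were lower. Each passed edgeR's test, with adjusted p of 0.044 or less. Epithelial markers such as Cdh1, which stem cells also express, summed to 1094 and 1054 CPM in ESC, against 25.6 and 9.18 CPM in CIMEF and 9.89 and 12.1 CPM in DMEF. In ESC 4 of 4 tested were called higher in both comparisons, and their part in the results was not tested.

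The ratio of mitotic to S-phase mRNA was lower in stem cells than in either fibroblast line. The geometric mean level of the 19 mitotic genes over that of the 13 S-phase genes was 0.626 and 0.651 in ESC, 1.12 and 1.01 in CIMEF, and 1.12 and 0.975 in DMEF. ESC values lay below those of all 4 fibroblast libraries, and the fibroblast lines overlapped. S-phase genes had geometric means of 290 and 285 CPM in ESC, 99.3 and 98.6 CPM in CIMEF, and 147 and 176 CPM in DMEF. Mitotic genes had 181 and 186 CPM in ESC, 111 and 99.98 CPM in CIMEF, and 165 and 172 CPM in DMEF.

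**Figure D5:**
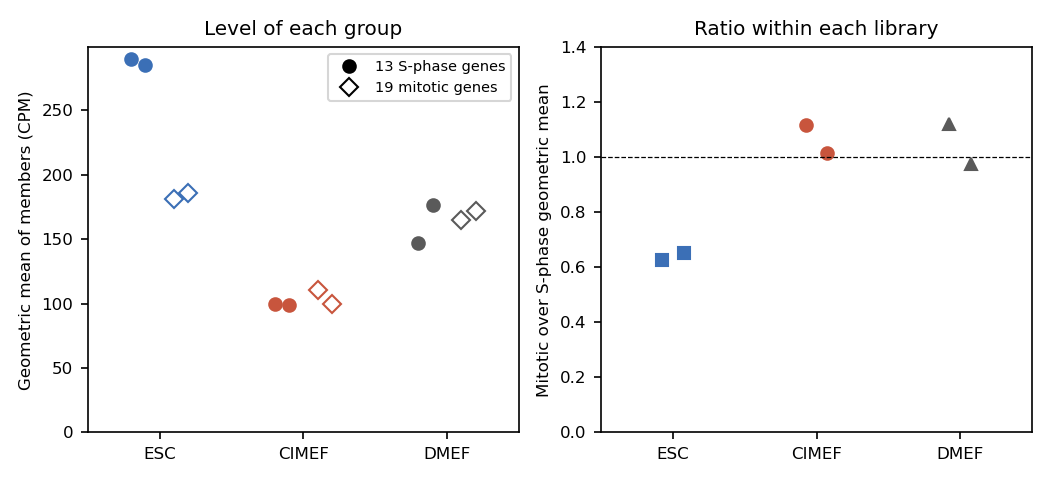
Geometric mean level (CPM) of the 13 S-phase genes (filled circles) and the 19 mitotic genes (open diamonds) in each library of ESC, CIMEF and DMEF (left), and the ratio of mitotic to S-phase mean in each library (right, dashed line at 1). The ESC libraries sit at 0.626 and 0.651, below the 4 fibroblast libraries, which sit between 0.975 and 1.12.

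The median log2 difference of mitotic genes less that of S-phase genes was -0.02 in CIMEF against DMEF, -0.76 in ESC against DMEF and -1.20 in ESC against CIMEF. A related value, the mitotic less the S-phase median of log2 CPM within each library, had a pooled SD of 0.13 between replicates. No p is given for these medians, since the genes of a phase are not replicates of a condition. Levels ranked ESC above DMEF above CIMEF in 24 of 35 members, namely 11 S-phase genes, 12 mitotic genes and Mybl2. A further 6, Tyms, Ccna2, Cdk1, Tpx2, E2f1 and Foxm1, were highest in DMEF and lowest in CIMEF. Cenpf, Kif11 and Mki67 were highest in CIMEF and lowest in ESC, Ccne2 was highest in DMEF and lowest in ESC, and Top2a was highest in ESC and lowest in DMEF. These orders are of line means, and neighbours that did not pass the test, such as ESC and DMEF for Plk1 or Ccna2, are not shown to differ beyond their spread.

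Some counts are less certain than the rest. The pseudogene Pcna-ps2 drew 1666 and 1508 counts in ESC, 112 and 117 in CIMEF and 129 and 205 in DMEF, 15.9% of the Pcna count over all libraries. Pcna itself drew 4657 and 4287 counts in ESC, 3386 and 3303 in CIMEF and 3099 and 4724 in DMEF, so the pseudogene weighed most in ESC. With the pseudogene added, Pcna stood at 223 and 216 CPM in ESC, 130.0 and 149 CPM in CIMEF, and 129 and 159 CPM in DMEF. Pcna alone had 164 and 159.6 CPM in ESC, 126 and 144 CPM in CIMEF and 124 and 152 CPM in DMEF, and did not pass in any comparison of the main fit. With upper-quartile scaling it passed as higher in ESC than in DMEF (edgeR adjusted p = 0.0260) and CIMEF (0.0258). With library totals alone it did so too (edgeR adjusted p = 0.0182 against DMEF and 0.0451 against CIMEF). Both ESC libraries lay above all 4 fibroblast libraries with and without the pseudogene. Pseudogenes of Ccnb1, Ccnb2 and Tyms drew under 1% of their parents' counts. The strand setting used for counting is not given in the sources used here, so reads of genes that overlap a neighbour (E2f1 and Necab3, Aurka and Cstf1, Cdc20 and Elovl1, Ccna2 and Exosc9, Ccne2 and Ints8, Mcm7 and Ap4m1, Kif20a with Brd8 and Cdc23) may be split or lost.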

How the data were processed

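The authors deposited raw counts, whole reads per Ensembl gene with no normalization, in 1 table of the 6 mRNA libraries. Per the submitters' processing notes, reads were trimmed with cutadapt, aligned with STAR 2.4 to mm10/GRCm38 and counted with HTSeq 0.9.1. Depth ran from 23030907 to 34093791 counts. The other 94 value columns hold small RNA and were not used. Symbols were found for 54409 of 54532 identifiers, 32500 had a count and 18094 passed edgeR's expression filter.

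Counts were fitted over all 6 libraries with edgeR 4.0.16 in R 4.3.3 (TMM scaling, quasi-likelihood test, 1 term per line), with two-sided p-values adjusted by Benjamini-Hochberg over all genes tested and a threshold of 0.05. Each SE was derived as the absolute log2 difference divided by the square root of the F value of edgeR's test. The scripts were tested on simulated counts. DESeq2 1.42.0 and 14 other alternatives were run. All 35 members may be named; of other cell cycle lists, those with the lowest p in each direction. Members and lists were chosen with earlier results of these data known. Promoter windows come from RefSeq (GRCm38.p6) and were searched for exact motif letters on both strands.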

Additional observations from a re-analysis of the deposited data

How the results depend on the processing

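Each comparison was repeated under 15 alternatives, and of 1575 member-level results 1429 kept their direction and side of the threshold, 48 gained a call, 47 lost one and 51 changed sign, none of them a called value. Of the counts of members, those higher in ESC than in DMEF moved, to 23 with upper-quartile scaling and 24 with library totals alone, against 15; the cause was not tested. With library totals alone the calls over all genes numbered 4376 up and 2759 down for CIMEF against DMEF, and 7145 up and 4472 down for ESC against DMEF, with all-gene medians of 0.16 and 0.41. Leaving out 1 library gave 11 to 18 members up and 3 to 5 down for ESC against DMEF, 2 to 3 up and 17 to 22 down for CIMEF against DMEF, and 23 to 27 up and 4 down for ESC against CIMEF. Without ESC replicate 2 the calls of Mcm4, Bub1 and Ccnb2 between ESC and CIMEF were lost, and without ESC replicate 1 those of Mcm4 and Bub1. A line left with 1 library was assumed to vary like the others, and the calls over all genes also moved in these fits.

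Sign changes of CIMEF against DMEF (log2) were Pcna 0.029 and Ccne2 0.053 with RLE scaling, Pcna 0.023 and Ccne2 0.049 with upper-quartile scaling, and Pcna 0.044 and Ccne2 0.068 with DESeq2. With library totals alone they were Mcm4 0.067, Pcna 0.14, Tyms 0.012 and Ccne2 0.17, and with the span trend removed Pcna 0.22 and Ccne2 0.0068. In ESC against DMEF, Tyms was at 0.0077 with RLE scaling, 0.0085 with the stricter filter, and 0.092 with the span trend removed. Upper-quartile scaling put Tyms at 0.24, Ccna2 at 0.19, Kif11 at 0.098, Cenpf at 0.11 and Foxm1 at 0.012, and library totals alone put them at 0.31, 0.27, 0.18, 0.19 and 0.084, with E2f1 at 0.032. Kif20a was at -0.053 with no filter beyond 1 count, -0.030 with the 2 lines alone and -0.13 with the span trend removed, which also put Kif11 at 0.078 and Cenpf at 0.11. In ESC against CIMEF, Tpx2 was at -0.0037 with RLE scaling, -0.013 with no filter beyond 1 count and -0.039 with DESeq2, and the span trend removed put Pcna at -0.15 and E2f1 at -0.0070. Leaving out single libraries gave, in CIMEF against DMEF, -0.19 to 0.010 for Mcm4, -0.14 to 0.16 for Pcna and -0.078 to 0.13 for Ccne2. It gave -0.085 to 0.11 for Tyms, -0.32 to 0.076 for Kif11 and -0.0050 to 0.095 for Kif20a in ESC against DMEF, and -0.015 to 0.19 for Tyms and -0.074 to 0.038 for Tpx2 in ESC against CIMEF.

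Same-numbered libraries showed no shared deviation (correlations 0.018, -0.0017 and -0.0024 over 18094 genes). The labels do not state whether the numbers pair them, and a small shared effect would not show in such a correlation. With a replicate block 3 members passed upwards and 22 downwards for CIMEF against DMEF, 14 and 3 for ESC against DMEF (Cdk1 and Cenpa lost), and 26 and 4 for ESC against CIMEF.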
